A study of Mus musculus with 4 samples.

Results

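Aquaporins are membrane channels, and 8 of them were followed in mouse back skin with and without the clock gene Bmal1. The 8 were a set list of family members (Aqp1, Aqp3, Aqp4, Aqp5, Aqp7, Aqp8, Aqp9 and Aqp11), each read by a probe set that the array annotation pairs with that gene alone. All 8 had 1 such probe set among the 35557 on the array, and all 8 were among the 16341 probe sets tested. Skin came from C57Bl6 mice at postnatal day 22, when hair follicles rest in telogen, and was taken at ZT22, which is 22 h after lights on in a cycle of 12 h light and 12 h dark. In the heterozygous group (2 mice) 1 allele of Bmal1 was mutant and the other wild-type (Arntl is the symbol used by the annotation). The 2 mice of the knockout group had both copies deleted in the germline, so the deletion was not confined to skin. The control group thus also carried a mutant allele, and no wild-type mouse was compared. Each mouse gave 1 Affymetrix whole-transcript array. The replicates are described as littermates, and the number of arrays limits the precision of every value. All levels are log2 signals after quantile normalisation, and all differences are knockout minus heterozygous on that scale. A level is comparable between arrays for the same gene, but not between genes.

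Aquaporins form pores that let water cross a membrane along an osmotic gradient. A branch of the family, the aquaglyceroporins Aqp3, Aqp7 and Aqp9, also passes glycerol, while Aqp1, Aqp4 and Aqp5 are mainly water channels. In skin, Aqp3 is the aquaporin of basal keratinocytes, where it carries water and glycerol that keep the epidermis hydrated. Aqp1 is known from capillary endothelium and red cells, Aqp4 from the sarcolemma of fast-twitch muscle fibres, Aqp5 from secretory glands, and Aqp7 from adipocytes, which release glycerol when triglyceride is broken down. BMAL1 pairs with CLOCK on E-box elements of DNA and drives the expression of clock genes, and Aqp3 has been described as clock-controlled in keratinocytes.

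The promoters of the members are shown because the deleted factor binds E-boxes. The RefSeq promoter table (GRCm38.p6) covers 250 bases before and 50 bases after each gene's start, and it matched 7 of the 8 members with 9 promoters. Aqp4 was not matched. The E-box was searched as CACGTG, which reads the same on both strands, and a variant E-box as CACGTT with its reverse complement AACGTG. Of all 32851 promoters of this length 7.15% held the E-box and 4.68% the variant. Among the matched members, Aqp5 and Aqp8 held 1 E-box each, and 1 of the Aqp9 promoters held 1 variant, beginning 149 bases before the start. The E-box began 87 bases before the start in Aqp5 and 75 bases before it in Aqp8. The letters of neither motif occurred in these windows of Aqp1, Aqp3, Aqp7 or Aqp11. The 2 promoters with an E-box are printed 5′ to 3′ on the strand of the gene, with the E-box in capitals, and that of Aqp3 is printed beside them because of its description as a clock-controlled gene.
Aqp3 (chr4:41098134-41098433, minus strand): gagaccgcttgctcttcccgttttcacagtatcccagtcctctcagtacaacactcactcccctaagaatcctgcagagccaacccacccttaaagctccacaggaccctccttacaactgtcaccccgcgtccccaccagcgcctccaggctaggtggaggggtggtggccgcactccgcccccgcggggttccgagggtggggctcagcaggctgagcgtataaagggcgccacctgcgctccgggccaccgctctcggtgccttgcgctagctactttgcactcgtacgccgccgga
Aqp5 (chr15:99590778-99591077, plus strand): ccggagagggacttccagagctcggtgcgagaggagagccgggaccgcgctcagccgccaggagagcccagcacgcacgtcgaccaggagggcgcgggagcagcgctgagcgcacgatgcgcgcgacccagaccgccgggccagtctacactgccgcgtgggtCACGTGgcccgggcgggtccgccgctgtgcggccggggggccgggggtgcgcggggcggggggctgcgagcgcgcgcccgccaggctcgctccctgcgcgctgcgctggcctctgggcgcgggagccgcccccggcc
Aqp8 (chr7:123462044-123462343, plus strand): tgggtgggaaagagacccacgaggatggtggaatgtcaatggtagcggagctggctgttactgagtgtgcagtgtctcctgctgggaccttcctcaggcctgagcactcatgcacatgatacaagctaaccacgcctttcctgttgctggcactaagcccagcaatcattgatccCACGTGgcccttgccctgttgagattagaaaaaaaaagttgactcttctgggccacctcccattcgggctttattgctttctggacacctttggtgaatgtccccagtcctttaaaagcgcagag
A match describes the letters in the window only. The genes printed here with an E-box, Aqp5 and Aqp8, differed between genotypes by -0.06 and 0.21, and neither passed the test described next.

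Knockout and heterozygous arrays were compared with limma, fitted over all 16341 tested probe sets, with a threshold of 0.05 on the Benjamini-Hochberg adjusted p. Of the 8 aquaporins, 1 passed, Aqp4, which was higher in the knockout, where 1.98% of all tested probe sets passed in either direction. At an unadjusted p under 0.05 the same single member was found, against 17.9% of all tested probe sets (11.6% higher and 6.38% lower). With each array centred on its median, that background counted 3047 higher and 796 lower probe sets, in place of 1890 and 1043. Aqp3 and Aqp9 then also lay under 0.05, both higher (limma unadjusted p = 0.017 and 0.019). With the deposited values they did so too (limma unadjusted p = 0.026 and 0.022), against a background of 2870 higher and 1116 lower. A replicate block on the labels' numbers put Aqp3 and Aqp11 under 0.05 (limma unadjusted p = 0.029 and 0.038). The background was then 2290 higher and 1385 lower. As to direction alone, 7 members were higher in the knockout and 1 was lower, with a median difference of 0.23, where 54.2% of all tested probe sets were higher with a median of 0.02. Without knockout array 1 the members counted 5 higher, and without knockout array 2 they counted 8.

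In 5 members, Aqp3, Aqp4, Aqp8, Aqp9 and Aqp11, both knockout arrays lay above both heterozygous arrays, and in 0 members did both lie below. Over all tested probe sets the groups did not overlap in 49.8%, with 27.8% above and 22.1% below. With the values as deposited the members above numbered 4, because the Aqp8 arrays then overlapped. The share of all tested probe sets above was then 37.3%. With median centring the same 5 members lay above, against 39.9% of all tested probe sets. Apart from Aqp4, these members had adjusted p values from 0.320 to 0.484 in the limma fit. With 2 arrays against 2, an exact permutation test of a single gene could not give a two-sided p below 0.333, so none was used.

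**Figure D1:**
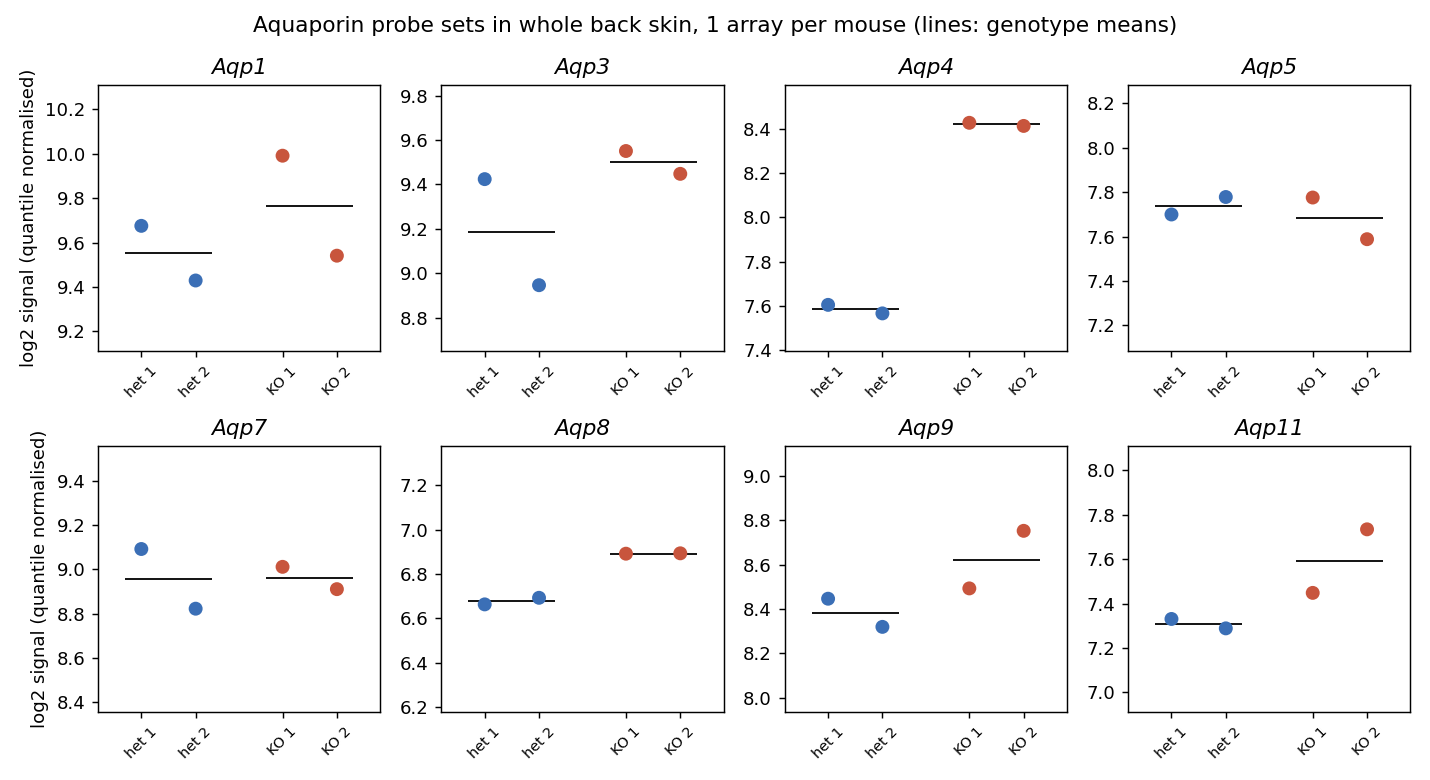
Log2 signal (vertical axis, quantile normalised, each panel spanning the same range) of the 8 aquaporin probe sets in the 4 arrays. Points are single mice, blue for heterozygous and red for knockout, and lines are genotype means. The Aqp4 points lie in pairs at 7.57 to 7.61 and 8.41 to 8.43, while the Aqp7 points of both genotypes are interleaved.

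A missed threshold does not show that an aquaporin was unchanged, and Aqp4 was the 1 past it. This water channel, anchored in the membrane of fast muscle fibres through the dystrophin-associated protein complex, read 7.61 and 7.57 in the heterozygotes and 8.43 and 8.41 in the knockouts. Arrays of 1 genotype differed by 0.04 at most, and each knockout array exceeded each heterozygous array by 0.81 to 0.86. The knockouts averaged 178% of the heterozygotes on the linear scale, which is a log2 difference of 0.83 (limma SE 0.11, 95% interval 0.58 to 1.08, n = 2 per genotype). The limma adjusted p was 0.010, and Aqp4 stood at rank 40 of the 16341 tested probe sets by p. The size of the difference held when any 1 array was left out, from 0.80 to 0.86. The call did not hold in every fit. Adjusted p was 0.081 without knockout array 1, 0.094 when probe sets paired with several genes were added to the table, and 0.303 with all probe sets of the array, named or not. In the fit with several-gene probe sets added 0 of 17557 passed (2713 at an unadjusted p under 0.05), Arntl itself had a limma adjusted p of 0.102, and none of the calls given below held. Of those calls, only Casq2 and Scgb1a1 passed without knockout array 1.

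Markers of skeletal muscle were higher in the same arrays. Whole back skin includes a sheet of striated muscle below the dermis. Of 20 tested skeletal muscle genes 19 were higher in the knockout and 7 of them passed, with a median difference of 0.53 (all tested probe sets 0.02). Acta1, skeletal alpha-actin, read 13.3 and 13.3 in the heterozygotes and 13.8 and 13.6 in the knockouts, a difference of 0.35 (SE 0.12, limma adjusted p = 0.172). Ckm, muscle creatine kinase, differed by 0.53 (SE 0.12, limma adjusted p = 0.052). Des, the intermediate filament protein desmin, had the smallest p of the list and rose by 0.97 (SE 0.13, limma adjusted p = 0.011). The part of these genes in the Aqp4 difference was not tested, and in bulk tissue more muscle in a sample cannot be told apart from more RNA per fibre. The gaps within a genotype each rest on the 2 arrays of that genotype, and their bearing on the Aqp4 difference was not tested. The mean of the 20 genes was higher by 0.19 in heterozygous array 2 than in heterozygous array 1 and differed by -0.31 between knockout arrays 2 and 1, where Aqp4 differed by -0.04 and -0.01. Between genotypes the list mean differed by 0.59 and Aqp4 by 0.83.

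Genes of slow-twitch fibres did not share the direction of Aqp4 as a list. Of 8 tested slow-fibre genes, 3 were higher and 5 lower, with a median of -0.47. The member that passed was Casq2, the calsequestrin of slow and cardiac muscle, which rose by 2.45 (SE 0.15, limma adjusted p = 3.0e-04). The slow-fibre median depended on heterozygous array 2, whose list mean lay 0.99 above that of heterozygous array 1. It was -0.02 without heterozygous array 2. Without heterozygous array 1 it was -0.93. With a replicate block 3 of these genes were called lower, where 1235 of all 16341 tested probe sets passed in either direction. Casq2 rose in each of these fits. In heterozygous array 2 Myl2, a slow myosin light chain, read 8.19 against 6.07 to 6.32 in the other 3, a gene chosen after its values were seen. Without heterozygous array 2 the Aqp4 difference was 0.84 and the fast and general muscle list had a median of 0.62.

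The protein complex that holds Aqp4 at the membrane was also described by a list. Of 11 tested genes of the dystrophin complex 8 were higher and 3 lower, with a median of 0.31, and 2 passed, both of them sarcoglycans. Sgcd, delta-sarcoglycan, read 8.22 and 8.18 in the heterozygotes and 8.84 and 8.77 in the knockouts, and rose by 0.60 (SE 0.11, limma adjusted p = 0.027). Sgca, alpha-sarcoglycan, rose by 0.60 (SE 0.11, limma adjusted p = 0.027). Without knockout array 1 these lists had medians of 0.25 and 0.41 and no calls. Neither sarcoglycan passed with knockout array 2 left out (adjusted p = 0.065 for Sgcd and 0.062 for Sgca). Both also missed the threshold without a filter (0.054 and 0.0504), and Sgcd without heterozygous array 2 (0.053).

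Aqp3, the channel of basal keratinocytes, was higher in both knockout arrays by a margin smaller than the spread of the heterozygous pair. It read 9.42 and 8.95 in the heterozygotes and 9.55 and 9.45 in the knockouts. Heterozygous array 2 was the low one, and heterozygous array 1 lay 0.02 below the nearer knockout array. The difference was 0.31 (limma SE 0.15, 95% interval -0.03 to 0.66), or 124% of the heterozygotes, with a limma adjusted p of 0.320. It shrank to 0.08 when heterozygous array 2 was left out, and grew to 0.55 when heterozygous array 1 was. The Aqp3 value thus rested on which heterozygous mouse was kept.

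Of 8 tested basal keratinocyte genes 3 were higher, 5 were lower and 0 passed (1 at an unadjusted p under 0.05, Itga6), with a median of -0.06. That split had no fixed direction: 7 were higher and 1 lower both with median centring and without knockout array 2 (median 0.14), 1 was higher and 7 lower without heterozygous array 2, and the median was -0.26 without knockout array 1. Krt5, the type II keratin of the basal layer, read 13.0 and 12.4 in the heterozygotes and 13.0 and 12.7 in the knockouts. Heterozygous array 2 was thus the lowest for Krt5 as for Aqp3. The mean of the basal list, like Itga6, was instead lowest in knockout array 2 (list mean 10.95, against 10.98 in heterozygous array 2). Itga6, the integrin alpha subunit of hemidesmosomes, had the smallest p of the list and differed by -0.28 (SE 0.13, limma adjusted p = 0.276). Of 8 tested genes of differentiated keratinocytes 5 were higher and 3 lower, with a median of 0.02, and 0 passed, also at an unadjusted p under 0.05. Without heterozygous array 1, where the Aqp3 difference was 0.55, the basal list had 3 higher and 5 lower, with a median of -0.02. The differentiated list then had 5 higher and 3 lower, with a median of 0.12. Krt10, a keratin of the suprabasal layers, differed by less than 0.01 in size. Of both keratinocyte lists and of the fibroblast list, 0 genes on the array lay below the filter on low signal.

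Aqp7, through which adipocytes release glycerol, had nearly equal genotype means. It read 9.09 and 8.82 in the heterozygotes and 9.01 and 8.91 in the knockouts, so the knockout pair lay between the heterozygous values. The difference was 0.0039 (limma SE 0.13, limma adjusted p = 0.991), and its 95% interval, -0.28 to 0.28, bounds what these arrays could show. The sign turned with the array left out, being -0.13 when heterozygous array 2 was dropped and 0.14 when heterozygous array 1 was. Aqp7 and Aqp3 are adjacent protein-coding genes in the reference annotation, and their differences were 0.0039 and 0.31.

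Of 10 tested white adipocyte markers 7 were higher and 3 lower, with a median of 0.06, and 0 passed (2 at an unadjusted p under 0.05). Like Aqp7, the list turned with the heterozygous array left out. Without array 2 it had 3 higher and 7 lower (median -0.07), and without array 1 it had 7 higher and 3 lower (median 0.25). Adipoq, the hormone adiponectin, read 11.5 and 10.7 in the heterozygotes and 10.96 and 11.4 in the knockouts. Plin1, which coats the lipid droplet, differed by 0.28 (SE 0.19, limma adjusted p = 0.475), and the hormone gene Lep, with the smallest p of the list, by -0.60 (SE 0.22, limma adjusted p = 0.200). The mean of the list, like Aqp7, was highest in heterozygous array 1 and lowest in heterozygous array 2. Between knockout arrays 2 and 1 the list mean differed by 0.16 and Aqp7 by -0.10.

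Of 13 tested genes that make or break down triglyceride and handle its glycerol 11 were higher and 2 lower, with a median of 0.24, and 1 passed. That gene was Dgat1, which adds the last acyl chain to triglyceride. It read 10.2 and 9.55 in the heterozygotes and 10.8 and 10.9 in the knockouts and rose by 0.98 (SE 0.19, limma adjusted p = 0.033), or differed by 0.65 without heterozygous array 2 (limma adjusted p = 0.042). It did not pass without knockout array 2 (limma adjusted p = 0.074) or 1 (0.105), without a filter (0.069), without a trend in the variance prior (0.054) or with a robust prior (0.052). Lipe, hormone-sensitive lipase, differed by 0.04 (SE 0.12, limma adjusted p = 0.903). The lower ones were Pnpla2, the lipase that starts triglyceride breakdown (-0.06), and Dgat2, another enzyme of the last step of synthesis (-0.02), both chosen after their values were seen. Without heterozygous array 2 the list had 9 higher and 4 lower, with a median of 0.12. Gk, the glycerol kinase gene, was not analysed here.

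Aqp9, an aquaglyceroporin known from liver and leukocytes, read 8.45 and 8.32 in the heterozygotes and 8.49 and 8.75 in the knockouts. The knockout arrays were the higher pair, by 0.05 for the nearest arrays. The difference was 0.24 (limma SE 0.13, 95% interval -0.04 to 0.52, limma adjusted p = 0.352), or 0.11 with knockout array 2 dropped and 0.36 with knockout array 1 dropped. Of 12 neutrophil markers on the array 8 lay below the filter on low signal, among them S100a8, a calcium-binding protein abundant in neutrophils. The 4 tested had a median of 0.04, and the one with the smallest p was Mmp9, a gelatinase (0.46, SE 0.16, limma adjusted p = 0.179). Of 10 tested macrophage markers 2 were higher and 8 lower, with a median of -0.14. Without heterozygous array 2 all 10 were lower, with a median of -0.27. Cd68, a lysosomal protein of macrophages, had the smallest p (-0.65, SE 0.16, limma adjusted p = 0.073). In the fit of all 4 arrays neither list had a member past the threshold, and each had 1 at an unadjusted p under 0.05, Mmp9 and Cd68.

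**Figure D2:**
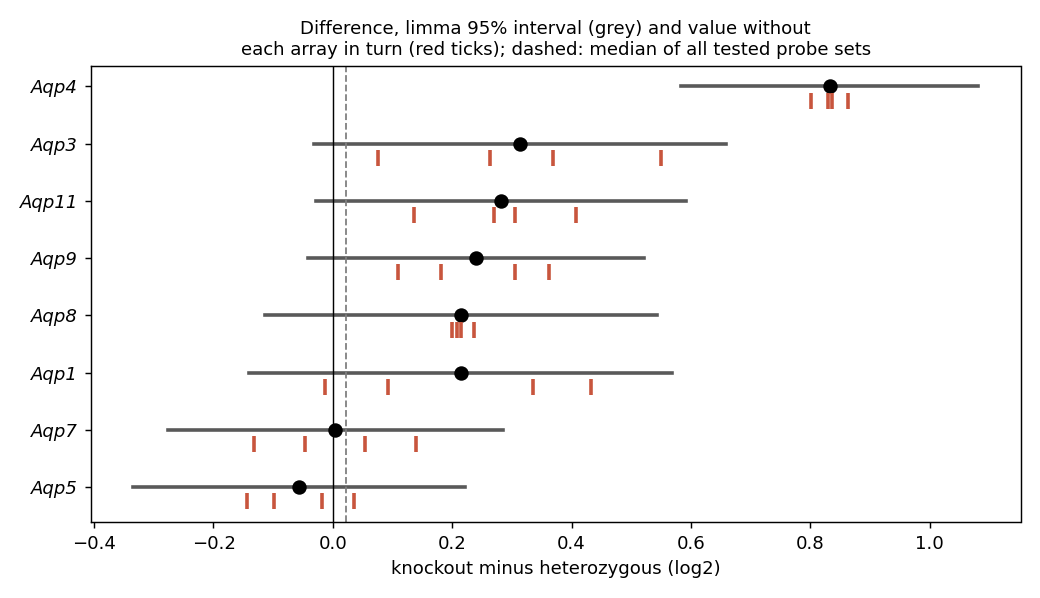
Knockout minus heterozygous difference (log2, horizontal axis) of each aquaporin as a black point with limma's 95% interval in grey, the value without each array in turn as red ticks, and the median of all tested probe sets (0.02) as a dashed line. The Aqp4 interval, 0.58 to 1.08, is the one of the 8 that does not contain 0, and its ticks lie within 0.80 to 0.86.

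Aqp1, the water channel of capillaries and red cells, overlapped between the genotypes. It read 9.68 and 9.43 in the heterozygotes and 9.99 and 9.54 in the knockouts. Knockout array 1 was the high one, and the other 3 lay within 0.25 of each other. The difference was 0.21 (limma SE 0.16, 95% interval -0.14 to 0.57, limma adjusted p = 0.519), and it was -0.012 with knockout array 1 dropped and 0.43 with knockout array 2 dropped. Of 12 tested endothelial genes 5 were higher and 7 lower, with a median of -0.04, and 0 passed (0 also at an unadjusted p under 0.05). The endothelial split changed with the scaling and the array left out. It was 10 higher and 2 lower with the deposited values and with median centring (medians 0.07 and 0.10). Without knockout array 1 it was 1 higher and 11 lower (median -0.16), and without knockout array 2 it was 8 higher and 4 lower (0.14). Pecam1 (CD31) differed by -0.10 (SE 0.16) and Cdh5 (VE-cadherin) by 0.07 (SE 0.16). The mean of the endothelial list was highest in knockout array 1, as Aqp1 was. Vwf, von Willebrand factor, had the smallest p of the list (-0.26, SE 0.13, limma adjusted p = 0.317). Of the 11 genes of the red cell list 3 had a probe set paired with that gene alone, and 2 were tested. The globin genes of the list had no such probe set. Of the tested genes, Alas2, the first enzyme of haem synthesis in red cells, differed by 0.05 (SE 0.18). The other, the anion exchanger Slc4a1, differed by -0.16 (SE 0.13).

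Aqp5, the water channel of secretory glands, was the 1 member with a lower knockout mean. It read 7.70 and 7.78 in the heterozygotes and 7.78 and 7.59 in the knockouts, which overlapped. The difference was -0.06 (limma SE 0.12, 95% interval -0.34 to 0.22, limma adjusted p = 0.853), and it turned to 0.035 without knockout array 2. Of 9 tested genes of secretory glands 4 were higher and 5 lower, with a median of -0.06. The member that passed was the secretoglobin Scgb1a1, which fell by 1.21 (SE 0.15, limma adjusted p = 0.0086). Aqp5 lies between Aqp2 and Aqp6 in the reference annotation. Aqp2, the vasopressin-regulated channel of the kidney collecting duct, differed by -0.11 (SE 0.11, limma adjusted p = 0.657), and Aqp6 lay below the filter. Of the 2 tested aquaporins outside the list of 8, the other was Aqp12, a family member known from pancreas. It differed by -0.41 (SE 0.15, limma unadjusted p = 0.022, limma adjusted p = 0.193). For both Aqp2 and Aqp12 the knockout arrays lay below both heterozygous arrays, as in 22.1% of all tested probe sets. Mip, the lens aquaporin, also lay below the filter.

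Aqp8, known from gut, liver and pancreas, lay close to the limit of the filter. It read 6.66 and 6.69 in the heterozygotes and 6.89 and 6.89 in the knockouts, where probe sets with a mean of 6.67 or less were not tested. The difference was 0.21 (limma SE 0.15, 95% interval -0.11 to 0.54, limma adjusted p = 0.484). As deposited, the values were 6.66 and 6.83 in the heterozygotes and 6.79 and 6.88 in the knockouts, a difference of 0.09, so the gap between the groups depended on the scaling. Sebocyte genes, of the cells that secrete skin lipid, were higher in the same arrays. All 10 tested were higher with a median of 0.62, and 2 passed, Awat1, a wax ester synthase (1.12, SE 0.16, limma adjusted p = 0.012), and the fatty acid elongase Elovl3 (0.82, SE 0.12, limma adjusted p = 0.013). Without heterozygous array 2 the sebocyte list had 9 higher and 1 lower, with a median of 0.42. The part of these genes in the Aqp8 value was not tested.

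Aqp11, an intracellular family member of the endoplasmic reticulum, read 7.33 and 7.29 in the heterozygotes and 7.45 and 7.73 in the knockouts. The heterozygous arrays lay 0.04 apart and the knockout arrays 0.29 apart, with knockout array 2 the high one. The difference was 0.28 (limma SE 0.14, 95% interval -0.03 to 0.59, limma adjusted p = 0.320). It was 0.14 with knockout array 2 dropped and 0.41 with knockout array 1 dropped, while its SE was 0.14.

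**Figure D3:**
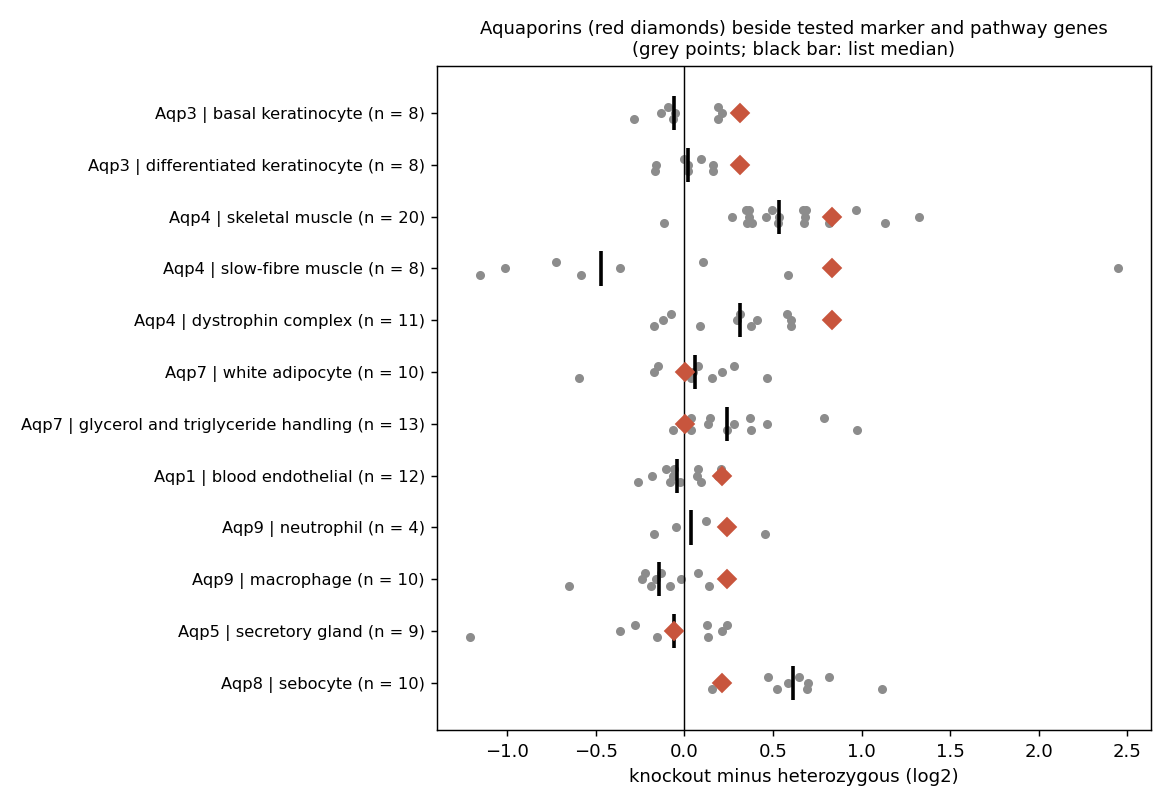
Knockout minus heterozygous difference (log2, horizontal axis) of the tested genes of each list (grey points, with the list median as a black bar) beside the aquaporin listed with it (red diamond). Aqp4 at 0.83 lies above the median of the skeletal muscle list, 0.53, and Aqp7 at 0.0039 lies beside the white adipocyte median, 0.06.

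The response to osmotic stress, which governs how cells handle water and small solutes, gave no call. Of 11 tested genes of the tonicity response and osmolyte transport 4 were higher and 7 lower, with a median of -0.01 and a range of -0.23 to 0.21. None passed, and 0 reached an unadjusted p under 0.05. With the deposited values and with median centring 9 were higher and 2 lower (medians 0.08 and 0.11), so the split of this list depended on the scaling. Nfat5, the transcription factor that drives this response, differed by -0.03 (SE 0.12, limma adjusted p = 0.935), and the cotransporter Slc12a2, with the smallest p of the list, by 0.21 (SE 0.11, limma adjusted p = 0.332).

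Genes with the most similar course over the 4 arrays were found by the Euclidean distance between profiles, each centred on its own mean, among 16340 other tested probe sets. With 4 arrays many genes lie close to any profile, so the names are a description. The nearest to Aqp4 were Car14, a membrane carbonic anhydrase (distance 0.01), Ttll7 (0.04) and Ddx56 (0.07). Car14 read 7.20 and 7.16 in the heterozygotes and 8.01 and 8.001 in the knockouts. The nearest to Aqp3 were the chaperone gene Hsp90aa1 (0.01), Cpsf2 (0.02) and Mir485 (0.02), and those to Aqp7 were Cant1 (0.0059), 1700001O22Rik (0.0074) and Gab3 (0.01).

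**Figure D4:**
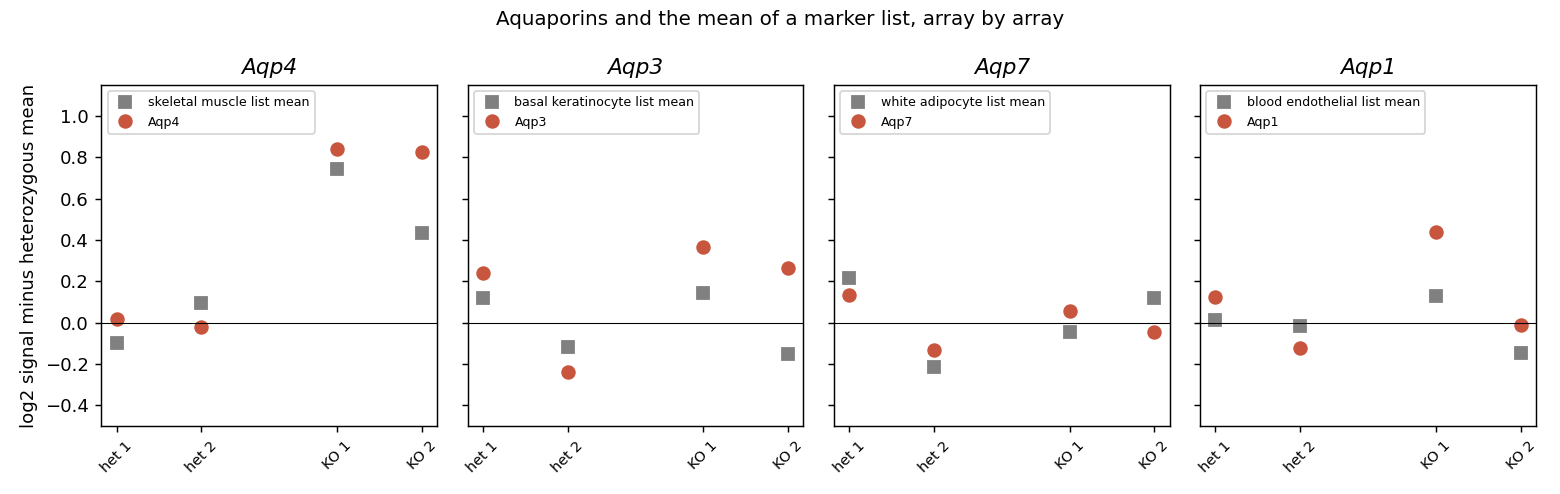
Log2 signal minus the heterozygous mean (vertical axis) of Aqp4, Aqp3, Aqp7 and Aqp1 (red circles) and of the mean of a marker list (grey squares) in each of the 4 arrays. Between knockout arrays 2 and 1 Aqp4 differs by -0.01 and the mean of the skeletal muscle list by -0.31.

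As a check of the labels, the Arntl probe set, which averages probes that may lie outside the deleted part, read 8.90 and 9.08 in the heterozygotes and 8.29 and 8.16 in the knockouts. It fell by 0.76 (SE 0.12, limma adjusted p = 0.015). Of 16 clock genes 9 were higher and 7 lower, and 4 passed: Arntl, Nr1d1, Cry1 and Bhlhe41. Nr1d1 did not pass without knockout array 2 (limma adjusted p = 0.089) or without a filter (0.055). Bhlhe41 did not pass without heterozygous array 2 (limma adjusted p = 0.103), with a robust prior (0.063), with no trend (0.065) or with no filter (0.1004). On the first axis of variation of the tested probe sets, which held 59.2% of the variance, the heterozygotes had scores of -7.94 and -22.9, and KO 2 one of 10.9, while KO 1 lay farthest on that side, so heterozygous array 2 and knockout array 1 were the outermost.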

How the data were processed

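RNA from the skin of 4 mice was labelled with the Ambion WT kit, per the labels' protocols. The submitters' processing notes name PLIER 2.0 and Affymetrix Expression Console 1.1.1. The deposited values are 1 table of probe set signals, taken to be log2 from their range. The build of the array annotation, and whether arrays were scaled to each other, is not stated there. How PLIER and averaging along a transcript alter differences near background was not tested. Quartiles of the deposited arrays differed by up to 0.34, so the arrays were quantile normalised. By the platform annotation 21789 probe sets had 1 gene, 1621 several and 12147 none, and symbols were updated through the gene identifier. Tested were probe sets of 1 gene with a mean above the 25th percentile (6.67).

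Genotypes were compared across all genes with limma 3.58.1 in R 4.3.3 (lmFit, eBayes with a trend, 2 residual degrees of freedom) and Benjamini-Hochberg adjustment. SEs are limma's moderated ones. Marker and pathway lists were counted with 1 probe set per gene and not tested. The members and lists were chosen with earlier results of these data known. Named are the members, a set of defining markers, the member of each list with the smallest p, and the 3 genes nearest to Aqp3, Aqp4 and Aqp7. Other genes were chosen after their values were seen: Sgca, Elovl3, Pnpla2, Dgat2, Slc4a1, Myl2, Aqp2, Aqp6, Aqp12, Mip and the clock genes other than Arntl. No batch is recorded in the labels.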

Additional observations from a re-analysis of the deposited data

How the results depend on the processing

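The difference of Aqp4 kept its sign under all 16 alternatives (0.67 to 0.90), but its call ended without knockout array 1, with all probe sets, and with probe sets of 1 or several genes, so that 0 aquaporins passed in these. The last alternative was chosen after seeing the data. With the arrays left out in turn, the aquaporins that passed numbered from 0 to 2, the second being Aqp3 without heterozygous array 1. Aqp3, Aqp8, Aqp9 and Aqp11 kept their sign under all 16. With 1 array left out, Aqp1 ranged from -0.012 to 0.43, Aqp7 from -0.13 to 0.14 and Aqp5 from -0.14 to 0.035, so their signs turned. A genotype left with 1 array was taken to vary as the other pair did.

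Over all tested probe sets, 323 passed. The count was 544 with the deposited values, 913 after median centring, which shifted the median of all tested probe sets to 0.10, 145 without a filter, 0 with all probe sets (3983 at an unadjusted p under 0.05), 0 with probe sets of 1 or several genes (2713), and 37 to 958 with 1 array left out. With a replicate block on the labels' numbers it was 1235, with Aqp4 the 1 aquaporin past the threshold. Deviations of same-numbered arrays correlated at 0.17, but 2 pairs cannot show that the numbers pair the mice. The cause of these changes was not tested. Offsets of 16 and 64, a filter at the 50th percentile, no trend, a robust prior and 1 probe set per gene left both counts within 1.5 times. Aqp5, Aqp8 and Aqp11 were not tested with the filter at the 50th percentile.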
